A study of Drosophila melanogaster with 9 samples.

Results

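Genes of yolk production and uptake were followed in ovaries of 3 Drosophila melanogaster lines: the yolk protein genes Yp1, Yp2 and Yp3, the yolk receptor gene yl (yolkless) and the lipophorin receptor genes LpR1 and LpR2. They were chosen by name, as 6 of the 17199 genes listed, and all 6 were among the 10662 genes tested. The lines M6stop and F9ΔNLS carry edited alleles of Pcif1, whose protein is named for its binding to the phosphorylated tail of RNA polymerase II. In M6stop a deletion shifts the reading frame and leads to an early stop codon. In F9ΔNLS the nuclear localization signal is missing in frame, and the product has 829 amino acids. Both alleles were made by genome editing in a w1118 background and then backcrossed to the line Pcif1 BG02557, whose own Pcif1 gene holds a P-element in its first intron and which served as the control for both. Ribosomal-RNA-depleted total RNA was sequenced in 3 libraries per line, described as biological replicates, with 3 pairs of ovaries collected per line. The age of the flies was not given in the sources used here.

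A fly egg stores its food as yolk. The yolk proteins are related to lipases and are secreted by the follicle cells that surround the egg chamber and, into the blood, by the fat body, the fly's counterpart of liver and adipose tissue. The oocyte takes them up through Yolkless, a receptor of the low-density lipoprotein receptor family, in clathrin-coated vesicles. Lipid arrives on lipophorin particles, for which LpR1 and LpR2 are receptors of the same family.

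The values are those of the authors' deposited table: a mean normalized count over all libraries, a log2 fold change of each mutant line over BG02557 and a DESeq2 adjusted p. Columns of single libraries were not used, because their names match no sample label, so neither a level per line nor a spread between libraries is given. Rises and falls below are changes with an adjusted p under 0.05. Of all genes tested, 371 rose and 218 fell in M6stop, and 1233 rose and 1264 fell in F9ΔNLS. These are shares of 3.48% up and 2.04% down in M6stop, and 11.6% up and 11.9% down in F9ΔNLS. Listed changes appear shrunk toward 0, since 45 of 589 calls in M6stop and 29 of 2497 in F9ΔNLS were under 0.1, so a listed value may understate a change. RNA of Pcif1, the edited gene, had a log2 change of -2.51 in M6stop, where the DESeq2 adjusted p is listed as 0, and 0.02 in F9ΔNLS (DESeq2 adjusted p = 0.83), per the authors' deposited table. Pcif1 lies on chromosome 3L, which holds none of the 6 genes.

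The yolk protein genes and yl lie on the X chromosome, and the lipophorin receptor genes on 3R. On the BDGP6.54 assembly, Yp2 (FBgn0005391) lies on X from 10050951 to 10052636 on the minus strand, and Yp1 (FBgn0004045) from 10053811 to 10055498 on the plus strand. These genes point away from each other across 1174 bases. Yp3 (FBgn0004047) lies alone, on X from 13759546 to 13761547 on the plus strand. The annotated coding regions give proteins of 439 amino acids for Yp1, 442 for Yp2 and 420 for Yp3, from 2 exons in Yp1 and Yp2 and 3 in Yp3. The gene for the receptor is far longer in its coding part: yl (FBgn0004649), on X from 14193214 to 14199958 on the plus strand, encodes 1937 or 1984 amino acids. LpR2 (FBgn0051092, 3R from 25698727 to 25740465) and LpR1 (FBgn0066101, 3R from 25741348 to 25763105) both lie on the minus strand, 882 bases apart, with 9 and 10 annotated transcripts.

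**Figure D1:**
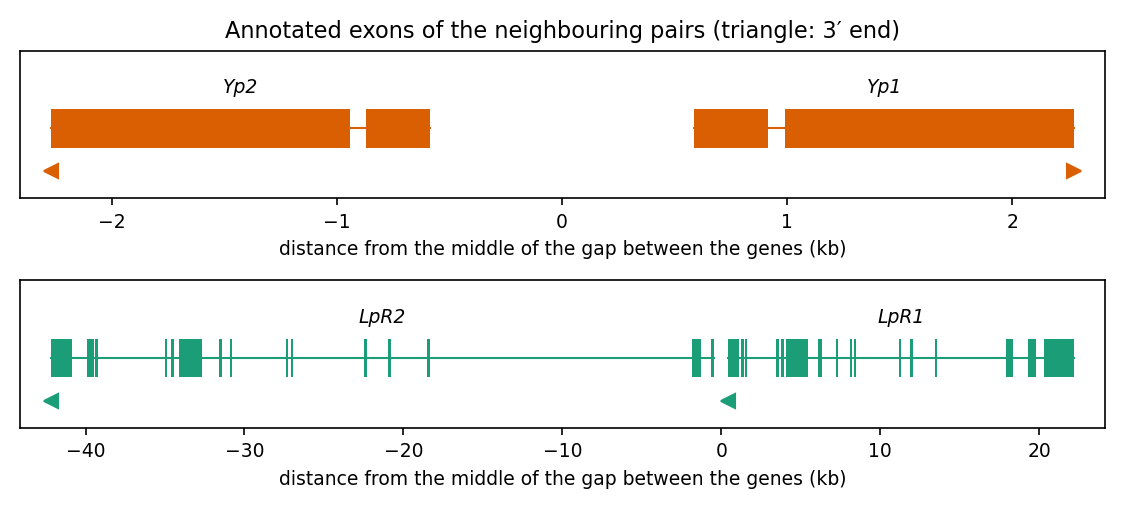
Annotated exons (boxes) and gene spans (lines) of Yp2 with Yp1 (upper panel) and LpR2 with LpR1 (lower panel), against the distance in kb from the middle of the gap between the genes, with a triangle at each 3′ end. The yolk protein genes point away from each other across a gap of 1174 bases, and the lipophorin receptor genes follow each other on the same strand across a gap of 882 bases.

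Yolk protein and yl transcripts had far higher mean counts than those of the lipophorin receptors. Over all libraries Yp2 had a mean of 57453 normalized counts, yl 52846, Yp1 42172 and Yp3 25678 in the authors' deposited table. By this mean they ranked 6, 8, 17 and 62 among 9925 tested protein-coding genes. LpR2 had 4974 and LpR1 1935 mean normalized counts in the authors' deposited table, ranks 635 and 2199. The 3 yolk protein genes together held 0.69% of all normalized counts outside ribosomal RNA, of which Yp2 held 45.9%, Yp1 33.7% and Yp3 20.5%.

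Scaled by the length of their annotated exons, the levels ran from Yp2 through Yp1, Yp3, yl and LpR2 to LpR1. Yp2 had 35509 mean normalized counts per kb of exon, Yp1 26177 and Yp3 13746, computed from the authors' deposited table. The receptor gene yl had 8321 on the same scale, LpR2 903 and LpR1 291. Per kb, Yp2 ranked 23, Yp1 58, Yp3 122 and yl 159. The median tested protein-coding gene had 324 per kb, so LpR1 lay just under the middle of ovarian genes. The level of yl per kb was 9.2 times that of LpR2 and 28.5 times that of LpR1, and Yp2 stood at 4.27 times yl. These are means over the libraries of all lines, 6 of 9 from mutants, and whether neighbours in this order differ beyond their spread was not tested.

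**Figure D2:**
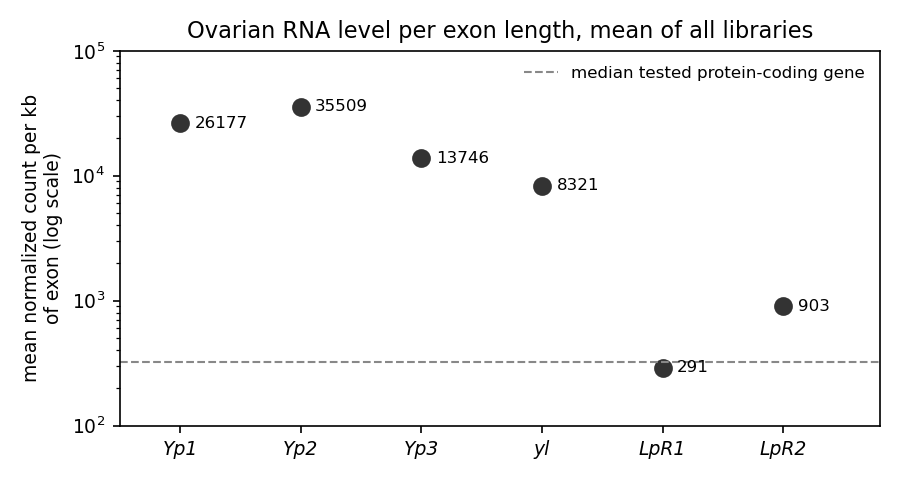
Mean normalized count over all libraries per kb of annotated exon (log scale) for each gene, with the median tested protein-coding gene (324) as a dashed line. The yolk protein genes stand at 13746 to 35509, yl at 8321, LpR2 at 903 and LpR1 at 291.

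RNA of all 3 yolk protein genes rose in M6stop ovaries, by between 1.78-fold and 2.14-fold as listed, and no receptor gene passed the test. Yp3 rose by 1.10 on the log2 scale (DESeq2 adjusted p = 0.00093), per the authors' deposited table. The divergent pair followed, with Yp1 up by 1.05 (DESeq2 adjusted p = 0.0039) and its neighbour Yp2 up by 0.83 (DESeq2 adjusted p = 0.017) in the same deposited table. Among the 291 tested genes whose mean reached 10000 normalized counts, these were the 3 highest log2 changes in M6stop. Thus 3 of the 6 genes rose, beside 3.48% of all genes tested and 3.61% of those with a mean of at least 1000. At an adjusted p under 0.01, 2 of the 6 passed upward, Yp1 and Yp3, beside 1.93% of all genes. By DESeq2 0 of the 6 fell, beside 2.04% of all genes tested, and at least 4 had an unadjusted p under 0.05 upward and 0 downward. The median change was 0.49 over the 6 genes and -0.0007 over all genes tested.

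For the receptors the listed changes in M6stop were small. The yolk receptor gene yl had a log2 change of -0.003 (DESeq2 adjusted p = 0.99), per the authors' deposited table. LpR1 had 0.02 (DESeq2 adjusted p = 0.94) and LpR2 0.15 (DESeq2 adjusted p = 0.077) in that deposited table. No interval can be given for these changes, so a p above the threshold does not show that receptor RNA stayed level. The mean listed change was 0.99 for the yolk protein genes and 0.05 for the receptor genes, a difference of 0.94 that is a description of these genes and was not tested.

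In F9ΔNLS ovaries 1 yolk protein gene, Yp2, and 1 receptor gene, LpR2, rose. Yp2 rose by 0.71 on the log2 scale, 1.64-fold (DESeq2 adjusted p = 0.016), per the authors' deposited table. Its divergent neighbour Yp1 had 0.38 (DESeq2 adjusted p = 0.097) and Yp3 had 0.04 (DESeq2 adjusted p = 0.86) in the deposited table of the authors. Neither of these 2 passed the test. LpR2 rose by 0.33 on the log2 scale, with the smallest adjusted p of the 6 (DESeq2 adjusted p = 2.3e-06), per the authors' deposited table. LpR1, the gene next to it, had 0.10 (DESeq2 adjusted p = 0.57) and yl 0.05 (DESeq2 adjusted p = 0.79) there, as deposited by the authors.

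Thus 2 of the 6 genes rose in F9ΔNLS, beside 11.6% of all genes tested and 18.6% of those whose mean reached 1000 normalized counts. At an adjusted p under 0.01, LpR2 alone of the 6 passed, beside 7.09% of all genes upward. By DESeq2 0 fell, beside 11.9% of all genes tested, with at least 3 upward and 0 downward at an unadjusted p under 0.05. The median change of the 6 genes was 0.21, and that of all genes tested was 0.004. The mean listed change was 0.38 for the yolk protein genes and 0.16 for the receptor genes, a difference of 0.22. It was 0.05 when Yp2 was left out and 0.39 when Yp3 was left out.

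The 3 yolk protein genes stood close together in M6stop and apart in F9ΔNLS in the listed values. Yp3 had 1.10 in M6stop and 0.04 in F9ΔNLS, Yp1 had 1.05 and 0.38, and Yp2 had 0.83 and 0.71, in the authors' deposited table. These differences between mutants were not tested, both were set against the same BG02557 libraries, and the degree of shrinkage can differ between the comparisons.

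**Figure D3:**
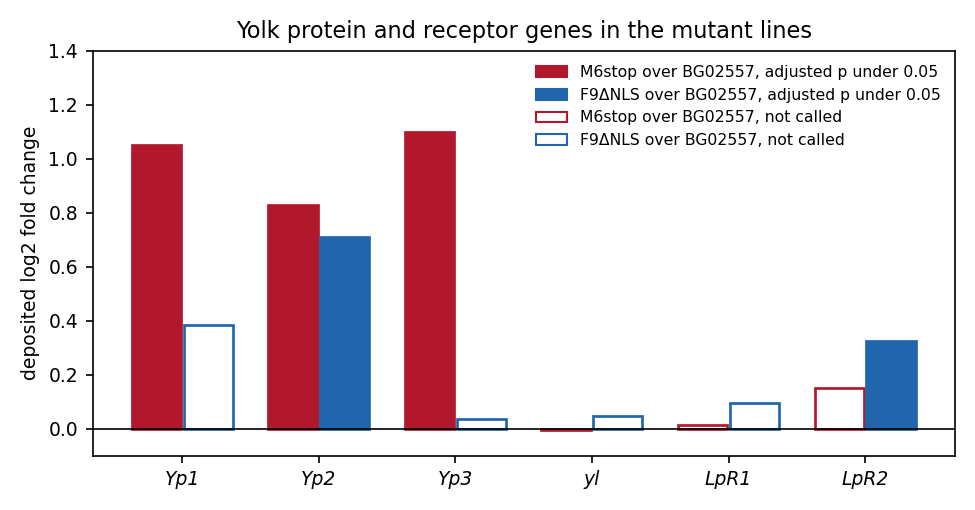
Deposited log2 fold change of each gene in M6stop (red) and F9ΔNLS (blue) over BG02557, filled where the DESeq2 adjusted p was under 0.05. The yolk protein genes stand at 0.83 to 1.10 in M6stop and at 0.04 to 0.71 in F9ΔNLS, and of the receptor genes LpR2 in F9ΔNLS (0.33) is filled.

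**Figure D4:**
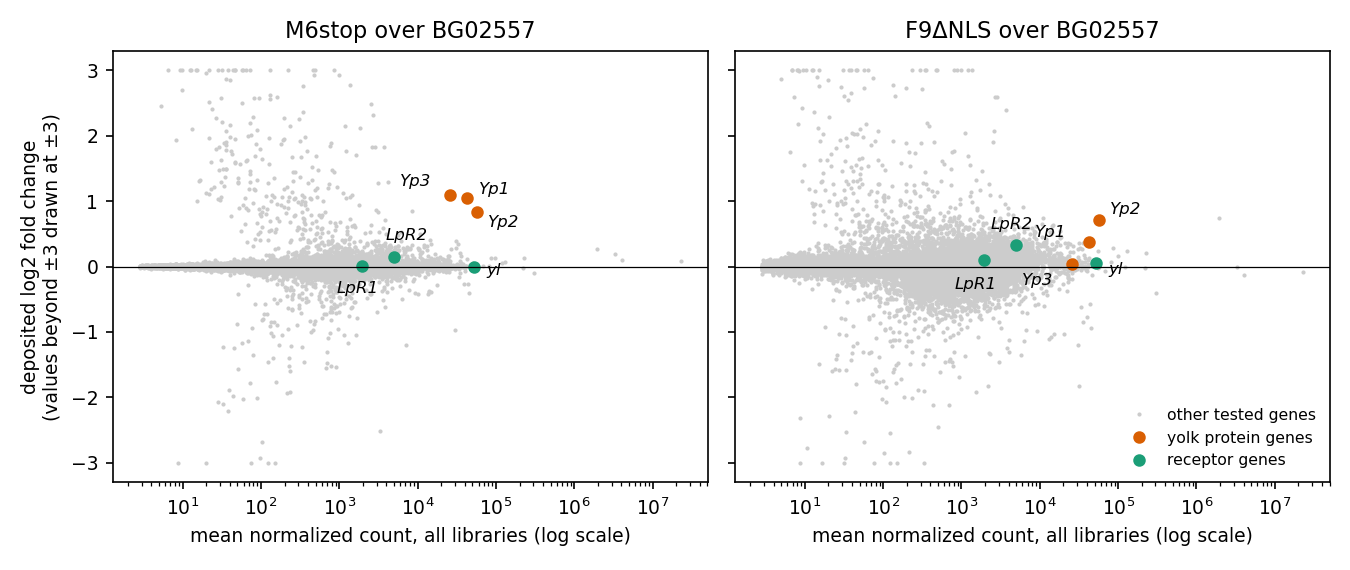
Deposited log2 fold change against the mean normalized count over all libraries (log scale) for the 10662 tested genes (grey), in M6stop (left) and F9ΔNLS (right) over BG02557, with the yolk protein genes in orange and the receptor genes in green. In M6stop the yolk protein genes have the 3 highest changes among the 291 genes with a mean of at least 10000, and yl lies at -0.003.

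Of the 9 nearest tested neighbours on the chromosome outside the set, 1 rose in M6stop and 1 in F9ΔNLS, beside 3.48% and 11.6% of all genes tested, and 0 fell in either by DESeq2. The M6stop rise was that of CR45601 (FBgn0267161), an antisense RNA gene inside Yp1 on the other strand. At a mean of 51.3 normalized counts it had a change of 1.35 on the log2 scale (DESeq2 adjusted p = 0.016), per the authors' deposited table. The strand setting of the counting is not given in the sources used here, so reads of Yp1 and of its antisense partner cannot be told apart. The F9ΔNLS rise was that of Cht6, a chitinase gene that ends 147 bases from Yp2, with 1.01 (DESeq2 adjusted p = 0.00021) at a mean of 103.9 normalized counts in the authors' deposited table. On either side of Yp3, Rtc1 (-0.0004 in M6stop and 0.16 in F9ΔNLS) and rdgB (0.01 and -0.22) missed the threshold in the authors' deposited table.

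Fat body, follicle, muscle and blood cell genes were examined as well, since such cells lie in or beside the ovary and fat body also makes yolk protein. A change in the number of cells of a type, up or down, and a change in RNA per cell cannot be told apart in these samples. Germline markers were abundant, with means of 473.5 to 35690.8 normalized counts in the authors' deposited table, as were follicle cell markers, at 46.4 to 35392.7. Fat body markers were lower, at 11.2 to 4171.2 with a median of 141.3, and 0 of the 19 were at 0 over all libraries.

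Of all genes tested 3.48% rose and 2.04% fell in M6stop. There 4 of 19 fat body markers rose and 1 fell, with a list median of -0.0009. Those that rose were CG6910 (1.69), the lipoprotein genes Apoltp (1.67) and apolpp (1.29), and Obp99a (0.996), per the authors' deposited table. The fall was that of tobi, with a listed value of -0.02 (DESeq2 adjusted p = 0.0045) that does not give its size. The larval serum and fat body protein genes had listed values near 0 there, which may likewise understate a change. Lsp2 had -0.01 (DESeq2 adjusted p = 0.81) and Fbp1 -0.0009 (DESeq2 adjusted p = 0.98), as deposited by the authors. In F9ΔNLS 4 of the 19 rose and 1 fell, with a list median of 0.09, beside 11.6% up and 11.9% down over all genes tested. Of the 10 markers whose mean reached 100 normalized counts 1 rose there and 0 fell, beside 1059 and 1190 of all 7707 tested genes with such a mean. At a DESeq2 adjusted p under 0.01 the list had 0 calls in F9ΔNLS, where 7.09% of all genes rose and 739 of 10662 fell. Fbp1 rose by 2.61 (DESeq2 adjusted p = 0.017) and apolpp had -0.13 (DESeq2 adjusted p = 0.45), per the authors' deposited table. The part of fat body RNA in the yolk protein values was not tested.

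Of 16 follicle cell markers 2 rose and 1 fell in M6stop, with a median of 0.04. Of the same 16, 5 rose and 6 fell in F9ΔNLS, with a median of 0.12. The shares over all genes tested were 3.48% up and 2.04% down in M6stop, and 11.6% and 11.9% in F9ΔNLS. Rises among the 16 markers numbered 0 in M6stop and 3 in F9ΔNLS at an adjusted p under 0.01 by DESeq2. Over all genes 1.93% and 7.09% rose at that threshold. The falls in F9ΔNLS included dec-1 (-1.83), Vm34Ca (-1.02) and Vm26Aa (-0.85), eggshell genes of the follicle cells, in the authors' deposited table. The 5 rises there were those of mirr (0.61), tj (0.53), fs(1)M3 (0.53), Fas3 (0.48) and br (0.40), as deposited by the authors. Whether the fs(1)M3 RNA came from follicle cells was not tested. In M6stop dec-1, Vm34Ca, Vm26Aa and fs(1)M3 had 0.01, 0.12, 0.16 and 0.005 in the deposited table of the authors, and none passed. The 2 rises in M6stop were those of Vm26Ab, also an eggshell gene (0.84, DESeq2 adjusted p = 0.021), and psd (0.63, DESeq2 adjusted p = 0.022). In F9ΔNLS Vm26Ab had 0.13 without passing, and psd fell (-0.78, DESeq2 adjusted p = 0.0022), per the authors' deposited table. Of 11 germline markers 0 rose and 0 fell in M6stop by DESeq2, and the minimum count at an unadjusted p under 0.05 was 0 in either direction. In F9ΔNLS 4 germline markers rose, among them aub (0.44), orb (0.40) and osk (0.36), and 2 fell, nos (-0.60) and exu (-0.37), per the authors' deposited table.

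Of 13 muscle sheath markers 5 rose in M6stop and 9 in F9ΔNLS, and 0 fell in either by DESeq2, with medians of 0.34 and 0.74. Over all genes tested 3.48% rose and 2.04% fell in M6stop, and 11.6% rose and 11.9% fell in F9ΔNLS. At an adjusted p under 0.01 by DESeq2, 1 of the 13 rose in M6stop and 7 in F9ΔNLS, beside 1.93% and 7.09% of all genes. At an unadjusted p under 0.05 at least 9 were upward and 1 downward in M6stop, and 9 and 0 in F9ΔNLS. Of 8 tested hemocyte markers 1 rose in M6stop, Hml, a clotting protein gene of blood cells (2.14), and 5 rose in F9ΔNLS, where Hml had 3.09, in the authors' deposited table. The other rises in F9ΔNLS were those of Pxn (1.61), Ppn (0.84), Col4a1 (0.59) and vkg (0.59). NimC1 (0.07), eater (0.04) and srp (-0.30) did not pass there. Means of Col4a1 (7166.2 normalized counts), vkg (6713.8) and Ppn (2688.4) lay far above that of Hml (233.6) in the authors' deposited table. Whether RNA of Col4a1, vkg and Ppn came from blood cells was not tested. The medians of this list were -0.01 in M6stop and 0.59 in F9ΔNLS. How far these cells bear on the yolk protein values was not tested.

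Genes for carriers of lipid in blood were called in both directions in M6stop. Of 6 genes for lipoproteins and lipid carriers 3 rose and 2 fell in M6stop, with a median of 0.69. Over all genes tested 3.48% rose and 2.04% fell there. Besides apolpp, the backbone of lipophorin, and Apoltp, a lipid transfer particle gene, both also counted as fat body markers, Nplp2 rose by 1.52 (DESeq2 adjusted p = 0.00023), per the authors' deposited table. GLaz and NLaz, lipocalin genes, fell by 1.52 and 0.97 in M6stop in the authors' deposited table. In F9ΔNLS 0 rose by DESeq2, with a minimum of 0 upward at an unadjusted p under 0.05, and 1 fell, GLaz (-2.01, DESeq2 adjusted p = 4.3e-37), per the authors' deposited table. The list median there was -0.13, and over all genes tested 11.6% rose and 11.9% fell in F9ΔNLS. Mtp, whose product loads lipid onto lipoproteins, had 0.10 in M6stop and 0.03 in F9ΔNLS and missed the threshold in the authors' deposited table.

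Receptor relatives and the folding factor of this receptor family gave 0 calls in M6stop by DESeq2, with at least 1 of 6 downward and 0 upward at an unadjusted p under 0.05. Of all genes tested 3.48% rose and 2.04% fell in M6stop. In F9ΔNLS 1 of the 6 fell and 0 rose, beside 11.9% down and 11.6% up over all genes tested. The list median was -0.02 in each line. The gene that fell was mgl, the fly megalin gene, with -0.42 in F9ΔNLS (DESeq2 adjusted p = 0.025) and -0.36 in M6stop (DESeq2 adjusted p = 0.078), per the authors' deposited table. The chaperone gene boca, whose product helps receptors of this family to reach the cell surface, had 0.004 in M6stop and -0.17 in F9ΔNLS and missed the threshold in the authors' deposited table. LRP1, arr and cue did not pass either, with values between -0.07 and 0.18.

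Genes of the clathrin pathway, by which Yolkless and its cargo are taken in, had 0 calls among 17 in M6stop by DESeq2. Of all genes tested 3.48% rose and 2.04% fell there. At an unadjusted p under 0.05 at least 3 of the 17 were upward and 2 downward. In F9ΔNLS 5 of the 17 rose and 0 fell, with a median of 0.07. Of all genes tested 11.6% rose and 11.9% fell in F9ΔNLS, and of those whose mean reached 1000 normalized counts 18.6% rose. The 5 clathrin pathway genes were EndoA (0.42, DESeq2 adjusted p = 1.3e-06), Hsc70-4 (0.28), aux (0.25), lap (0.17) and shi (0.14), per the authors' deposited table. Of these, EndoA, Hsc70-4 and aux, 3 of the 17, passed at an adjusted p under 0.01 by DESeq2. Over all genes 7.09% rose at that threshold. Hsc70-4 and aux encode the chaperone and co-chaperone that strip clathrin from vesicles, and shi encodes dynamin, which pinches vesicles off. The heavy chain gene Chc had 0.02 in M6stop and 0.09 in F9ΔNLS and missed the threshold in the authors' deposited table.

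Of 21 endosome and recycling genes 5 fell and 0 rose in F9ΔNLS by DESeq2, with a median of -0.06 and at least 7 downward and 1 upward at an unadjusted p under 0.05. Of all genes tested 11.6% rose and 11.9% fell in F9ΔNLS. At an adjusted p under 0.01 by DESeq2, Sec6 and Cp1 fell, 2 of the 21, beside 739 of the 10662 genes tested. Sec6 (-0.37), Exo84 (-0.23), Sec5 (-0.22) and Exo70 (-0.22), subunits of the exocyst that tethers vesicles to the cell membrane, fell in the authors' deposited table. Sec15 (-0.16), Sec10 (-0.11) and Sec8 (-0.02), the other listed subunits, did not pass in F9ΔNLS. In M6stop the values of Sec6, Exo84, Sec5 and Exo70 ran from -0.11 to -0.004 in the deposited table of the authors and none passed. Cp1, the cathepsin L gene, fell in both lines, by 0.37 in M6stop (DESeq2 adjusted p = 0.00023) and 0.29 in F9ΔNLS (DESeq2 adjusted p = 0.0055), per the authors' deposited table. It was the 1 call of the list in M6stop, where the median was -0.04. Of all genes tested 3.48% rose and 2.04% fell in M6stop.

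Regulators tied to yolk gene expression by sex, hormones and nutrition gave 2 rises and 0 falls among 21 genes in M6stop, with a median of 0.02. Of all genes tested 3.48% rose and 2.04% fell there. The 2 rises were those of Kr-h1, a target of juvenile hormone (0.68, DESeq2 adjusted p = 0.020), and foxo, which acts below the insulin receptor (0.17, DESeq2 adjusted p = 0.029), per the authors' deposited table. Neither passed at an adjusted p under 0.01 by DESeq2, where 1.93% of all genes rose. In F9ΔNLS 4 of the 21 rose and 3 fell, with a median of 0.10, beside 11.6% up and 11.9% down over all genes tested. At an adjusted p under 0.01 by DESeq2, 1 rose, foxo, and 2 fell, ix and tra2. Over all genes 7.09% rose and 739 of 10662 fell at that threshold. Kr-h1 (0.65) and foxo (0.36) rose there too, in the authors' deposited table. The sex-determination gene dsx, whose female product acts on the yolk protein genes in fat body, rose by 0.63 in F9ΔNLS (DESeq2 adjusted p = 0.019), per the authors' deposited table. Its partner gene ix (-0.46) and tra2 (-0.39), which acts in dsx splicing, were lower in F9ΔNLS and passed, in the authors' deposited table. In M6stop dsx had 0.03, ix -0.11 and tra2 -0.12, as deposited by the authors, and none passed.

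**Figure D5:**
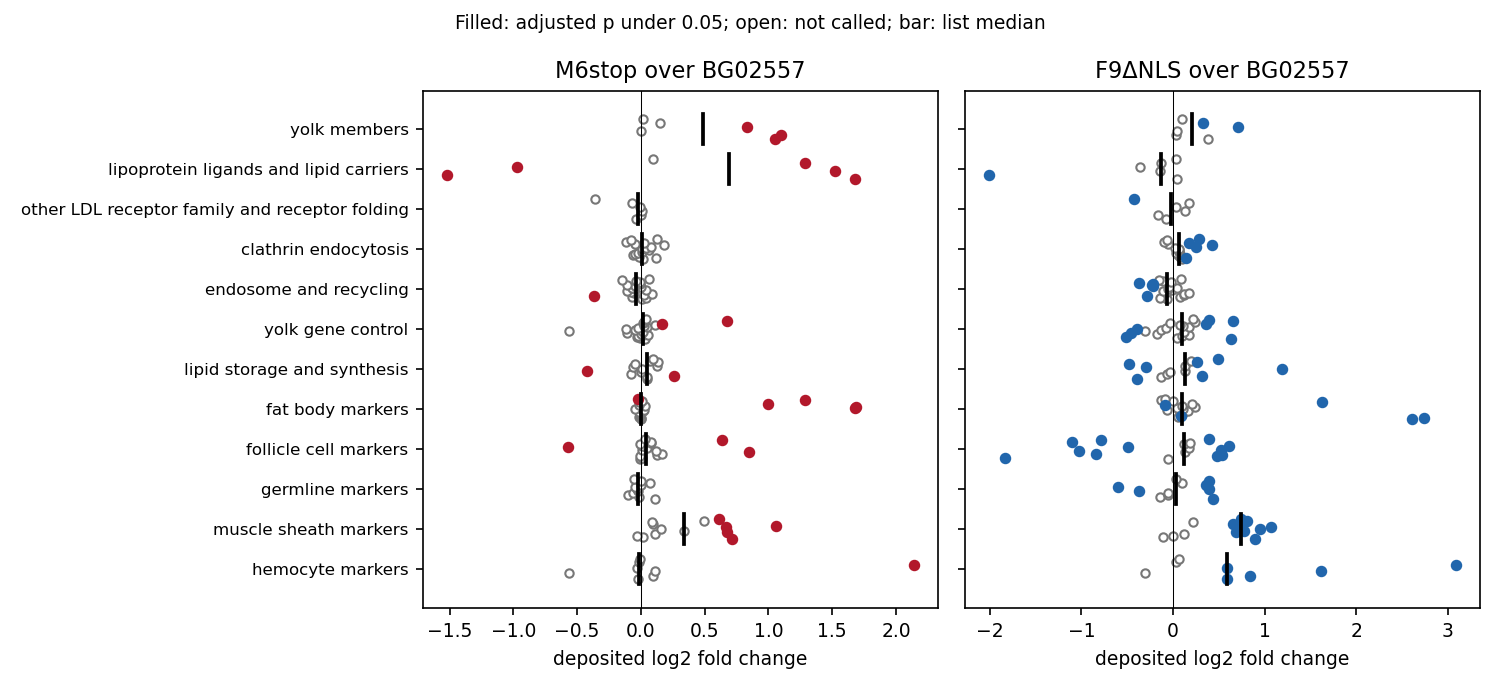
Deposited log2 fold change of every tested gene of the 12 lists in M6stop (left) and F9ΔNLS (right) over BG02557, filled where the DESeq2 adjusted p was under 0.05, with the list median as a bar. In M6stop the yolk and lipid carrier lists have the highest medians (0.49 and 0.69), and in F9ΔNLS the muscle and hemocyte lists do (0.74 and 0.59). The yolk median in M6stop lies in a gap between LpR2 (0.15) and Yp2 (0.83). That of the lipid carriers, with 3 rises and 2 falls, lies between Mtp (0.10) and apolpp (1.29).

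The genes whose pair of changes lay nearest to that of the yolk protein genes were Lerp, CG13868, Vm26Ab, Gs2 and Fdh. They were taken from 1294 genes whose mean reached 1000 normalized counts and that had a call in at least 1 of the 2 comparisons. The measure was the Euclidean distance from the mean pair of the yolk protein genes, 0.99 in M6stop and 0.38 in F9ΔNLS. Distances ran from 0.13 for Lerp to 0.37 for Fdh, while Yp1 itself lay at 0.06, Yp3 at 0.36 and Yp2 at 0.37. Lerp, which encodes a sorting receptor for lysosomal enzymes, had 1.10 in M6stop and 0.30 in F9ΔNLS in the authors' deposited table. Vm26Ab, a vitelline membrane gene of follicle cells, had 0.84 and 0.13, and the glutamine synthetase gene Gs2 had 0.72 and 0.17, in the authors' deposited table. With 2 comparisons that share their control libraries, the measure describes listed values and nothing more.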

How the data were processed

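Ribosomal-RNA-depleted RNA of fly ovaries was sequenced as paired-end libraries, 3 per line, per the labels' protocols. The submitters' processing notes name DESeq2 1.25.10, DESeq, Salmon 1.3.0, R 3.6.3 and BDGP6, with no roles. In the authors' deposited table, the mean normalized count is a signal value (counts divided by size factors, averaged over libraries, by the meaning DESeq2 gives that column). The authors' log2 fold changes and adjusted p-values were deposited per comparison, per the file headers, and base 2 was assumed. Shrinkage, strand setting and the adjustment method are not stated.

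The 9 columns of library values match no sample label and were not used, so the edgeR model planned as the first choice was not fitted and depth per library is not analysed here. The 47 ribosomal RNA genes held 64.3% of the summed means. Positions, exon unions and neighbours came from Ensembl release 115 (BDGP6.54), and 82 protein-coding genes without a length were left out of levels per kb. Lists held 12 sets, and 5 entries were not found by name. The members and lists were chosen with earlier results of these data known. Named were the 6 genes, the 5 genes of each list whose adjusted p was smallest in either line, the nearest pattern (5 genes) and the chromosomal neighbours. Lsp2, Fbp1, Mtp, Chc, Rtc1, rdgB, psd, tj, mirr, Fas3, br, NimC1, eater and srp were named beside them. So were Sec8, Sec10, Sec15 and, in M6stop, non-called values. Some of these were named after their values were seen. Unadjusted p-values were rebuilt from adjusted ones assuming Benjamini-Hochberg, which gives upper bounds of p and so minimum counts, and this step was tested on simulated data. Planned comparisons of promoter and protein sequences were not made, and no sequence was used here. Python 3.11.15 with pandas 2.3.3 was used.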

Additional observations from a re-analysis of the deposited data

How the results depend on the processing

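The 3 yolk protein rises in M6stop became 2 (Yp1 and Yp3) at an adjusted p under 0.01 and 4 at one under 0.1, where LpR2 joined them. The 2 rises in F9ΔNLS became 1 at 0.01 (LpR2), 1 where a log2 change of at least 0.5 was also asked (Yp2), and 3 at 0.1, where Yp1 joined them. Counts over all genes at 0.01 were 206 up and 145 down in M6stop and 756 and 739 in F9ΔNLS. The difference between yolk protein and receptor genes in F9ΔNLS, 0.22, was 0.05 without Yp2 and 0.39 without Yp3. Adjusting again over genes whose mean reached 100 normalized counts changed no call among the 6 genes. The 24 values of the 6 genes were also taken relative to the median of all tested genes or of the germline markers. These medians lay between -0.0218 and 0.0325, far under every called change, so this step could not reverse a call. The uncalled value of yl in M6stop went from -0.003 to 0.019 relative to the germline markers. Of 44 list counts, 11 moved by over 1.5 times at 0.01 and 2 when genes under a mean of 100 were left out. Counts that were 0 at the start could not move under either setting, so the unmoved ones overstate how stable the lists are. No paired analysis was possible because the library columns carry no sample label. For the same reason other normalizations, other tools and leaving out single libraries were not run, and how far 1 library decides a value was not tested.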

Other observations

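Genes of lipid storage and synthesis, which supply the other store of the egg, showed 1 rise and 1 fall among 13 in M6stop and 4 rises and 3 falls in F9ΔNLS, with medians of 0.05 and 0.13. Over all genes tested 3.48% rose and 2.04% fell in M6stop, and 11.6% rose and 11.9% fell in F9ΔNLS. ACC, the first committed enzyme of fatty acid synthesis, rose in both lines, by 0.26 in M6stop (DESeq2 adjusted p = 0.00049) and 0.31 in F9ΔNLS (DESeq2 adjusted p = 1.5e-05), per the authors' deposited table. The fatty acid binding protein gene fabp fell by 0.43 in M6stop and had 0.13 in F9ΔNLS, without passing there, in the authors' deposited table. In F9ΔNLS the lipid droplet genes went both ways: Lsd-1, a perilipin gene, rose by 1.19 and Jabba, whose product anchors histones to droplets, fell by 0.48, in the authors' deposited table. SREBP, a regulator of lipid synthesis, rose by 0.27 in F9ΔNLS and had 0.13 in M6stop (DESeq2 adjusted p = 0.10), per the authors' deposited table.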
